A study of Homo sapiens with 4 samples.

Results

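The G1 cyclins, their kinases and the inhibitors of these kinases were examined through 10 of the 19775 genes on the array (CCND1, CCND3, CDK4, CDK6, CCNE1, CCNE2, CDK2, CDKN1B, CDKN2A and RB1). Every probe set that the platform annotation ties to 1 of these genes and to no other was taken, which gave 25 of the 54675 probe sets on the array, and 21 of the 25 lay above the filter on dim signals (a signal of about 13.1). All 10 genes had at least 1 probe set above the filter. The RNA came from HCT116 cells, a long-established line from a human colorectal carcinoma. Cells of 2 arrays had received a control siRNA by lipid transfection and cells of the other 2 an siRNA to TET1, and the series asks which genes depend on TET1, an enzyme of DNA demethylation that converts 5-methylcytosine. The series describes the samples of each group as biological duplicates. HCT116 carries a mutant CDKN2A allele, and this holds for both groups. The labels give 1 siRNA group per target, so the loss of TET1 and side effects of its siRNA cannot be told apart, and the time from transfection to RNA extraction is not given in the sources used here.

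Cells pass from G1 into S phase when the retinoblastoma protein RB, encoded by RB1, is phosphorylated and releases E2F transcription factors. D cyclins with CDK4 or CDK6 begin this phosphorylation, and E cyclins with CDK2 complete it. Inhibitors restrain the kinases: p16, encoded by CDKN2A, binds CDK4 and CDK6, and p27, encoded by CDKN1B, binds cyclin-CDK complexes. In colorectal cancer cyclin D1 and cyclin E levels are often raised and the CDKN2A promoter is often methylated.

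RefSeq promoter windows (GRCh38.p14, 250 bases before to 50 after a start) were held for 7 of the 10 genes, at 11 starts; CCND1, CCNE2 and CDK2 had no entry. The windows printed are those of the gene that fell, CDKN2A, which has separate starts for the ARF and the p16 transcripts, and the most CpG-rich start of CCND3 and of CDK6, which rose. All 4 lie on the minus strand and are written 5′ to 3′, with each CpG, the dinucleotide in which most DNA methylation lies, in capitals.
CDKN2A, start of the ARF transcript, chr9:21995275-21995574: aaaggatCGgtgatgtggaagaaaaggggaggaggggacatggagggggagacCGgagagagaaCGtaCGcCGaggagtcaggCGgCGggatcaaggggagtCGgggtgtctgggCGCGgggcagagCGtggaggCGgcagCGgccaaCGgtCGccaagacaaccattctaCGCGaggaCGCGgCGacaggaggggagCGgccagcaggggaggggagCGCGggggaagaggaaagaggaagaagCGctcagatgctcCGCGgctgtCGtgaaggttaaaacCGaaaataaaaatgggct
CDKN2A, start of the p16 transcript, chr9:21974808-21975107: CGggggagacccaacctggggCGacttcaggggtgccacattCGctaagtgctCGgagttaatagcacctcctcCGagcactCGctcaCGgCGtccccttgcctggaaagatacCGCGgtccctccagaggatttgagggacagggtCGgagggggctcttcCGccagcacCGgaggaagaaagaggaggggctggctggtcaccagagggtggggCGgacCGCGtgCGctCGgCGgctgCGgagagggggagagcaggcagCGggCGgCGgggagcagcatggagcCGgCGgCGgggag
CCND3, chr6:41941759-41942058: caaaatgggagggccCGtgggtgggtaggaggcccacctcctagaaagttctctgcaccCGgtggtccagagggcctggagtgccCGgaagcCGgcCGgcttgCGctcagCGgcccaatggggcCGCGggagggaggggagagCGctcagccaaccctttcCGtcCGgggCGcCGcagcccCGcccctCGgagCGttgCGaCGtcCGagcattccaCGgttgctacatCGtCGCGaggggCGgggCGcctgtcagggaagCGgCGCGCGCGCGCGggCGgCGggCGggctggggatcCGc
CDK6, chr7:92836524-92836823: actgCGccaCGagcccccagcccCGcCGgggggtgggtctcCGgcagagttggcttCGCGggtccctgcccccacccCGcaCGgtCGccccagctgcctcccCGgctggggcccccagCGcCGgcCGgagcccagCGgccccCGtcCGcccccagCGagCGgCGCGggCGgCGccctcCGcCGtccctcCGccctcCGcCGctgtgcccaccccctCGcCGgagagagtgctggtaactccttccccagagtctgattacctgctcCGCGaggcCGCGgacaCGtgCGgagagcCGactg
The CDKN2A windows held 28 CpG at the ARF start and 26 at the p16 start, and the CCND3 and CDK6 windows held 37 each. The median over all 35116 windows of the table was 14 CpG, and 48.9% of them lay above it. Of the 11 windows of the 10 genes, 9 lay above that median. The exceptions were a downstream start of CCND3 with 3 CpG and the single RB1 window of the table with 0. Whether that RB1 window, chr13:48476200-48476499, covers the main start of the gene was not examined. Its 0 is therefore not read as the CpG number of the RB1 promoter. The choice of the most CpG-rich starts of CCND3 and CDK6 places their printed windows high, so no link between CpG number and direction is read from them. Methylation was not measured on these arrays.

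All 4 arrays share 1 trimmed mean, and their median signals ran from 13.9 to 15.5. The TET1 transcript read 58.1 and 59.6 on the control arrays and 14.6 and 15 after TET1 siRNA (limma log2 difference -1.28, SE 0.20, adjusted p = 0.000969). The lower values lie at the array median, where the size of the fall depends on the pseudocount (-1.92 with 1, -0.64 with 64). The second TET1 probe set read 18.2 and 35.5 against 6 and 8.9 and missed the threshold (log2 difference -0.84, limma adjusted p = 0.0509). Of 10 markers of colon epithelium, EPCAM, KRT8, KRT18 and KRT19 were bright in both groups (EPCAM read 2742 to 3133.5), KRT20 and VIL1 were dim, and CDX1, CDX2 and CDH17 lay below the filter. KRT8 was higher after TET1 siRNA (log2 difference 0.32, limma adjusted p = 0.00887), and CDH1, which encodes the epithelial adhesion protein E-cadherin, fell from 925.1 and 1059 to 474.8 and 394 (log2 difference -1.16, limma adjusted p = 2.78e-05). Of the markers on the array, 3 of 10 fibroblast, 3 of 10 endothelial, 2 of 9 lymphocyte and 0 of 8 myeloid genes lay above the filter. The endothelial marker ESAM rose from 4.7 and 25.6 to 67.5 and 60.6 (log2 difference 1.45, limma adjusted p = 0.00458). EGFL7 (128.5 and 107.1 against 80.5 and 91.4) and PECAM1 (12.3 to 25.1), the other endothelial markers above the filter, were not called. The endothelial markers below the filter read 13.9 or less on every array. The summed fibroblast signal was 342.2 to 367.3 in control cells and 417.3 to 522.7 in cells given TET1 siRNA, most of it from COL1A1. The part of these marker changes in the results was not tested. Ratios of 3' to 5' control probe sets, a sign of RNA integrity, were 0.846 to 0.858 and 0.858 to 0.884 for GAPDH in the 2 groups, and 1.19 to 1.21 and 1.26 to 1.28 for beta-actin, slightly higher with TET1 siRNA, and their part in the results was not tested either.

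After TET1 siRNA the D cyclin genes CCND1 and CCND3, the kinase gene CDK6 and RB1 were higher, and CDKN2A was lower. CDK4, CDK2, CCNE1, CCNE2 and CDKN1B did not pass the test. The rises ran from 1.39-fold (CDK6) to 2.04-fold (CCND3) by mean signal, and CDKN2A fell 1.49-fold. Each gene was read by its brightest probe set, log2(signal + 16) was compared between groups with limma, and p-values were adjusted over all 12389 genes tested. With 2 arrays a group, the smallest p of an exact permutation test is 0.33, and all p-values printed come from limma's model. Of the 10 genes, 4 rose and 1 fell, against 11.2% higher and 10.6% lower among all genes tested (21.9% in either direction). The median log2 difference of the 10 was 0.26, against 0.01 over all genes tested, with 7 genes above 0 and 3 below. In 9 of the 10 the groups did not overlap, and the same held for 59.0% of all genes tested. The 10 are bright genes, at percentiles 83.4 to 96.9 of control signal among all probe sets. With the filter raised to the upper quartile of signal, fewer genes were tested, and 1411 were called higher and 1257 lower. Bright genes were thus called at a larger share than all genes tested. The shares over all genes therefore make the 10 stand out more than bright genes would. The shares among genes of like signal were not computed, and the members were chosen with earlier results of these data known. Each array reads a whole culture, so fewer cells that carry a transcript and less of it per cell cannot be told apart.

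**Figure D1:**
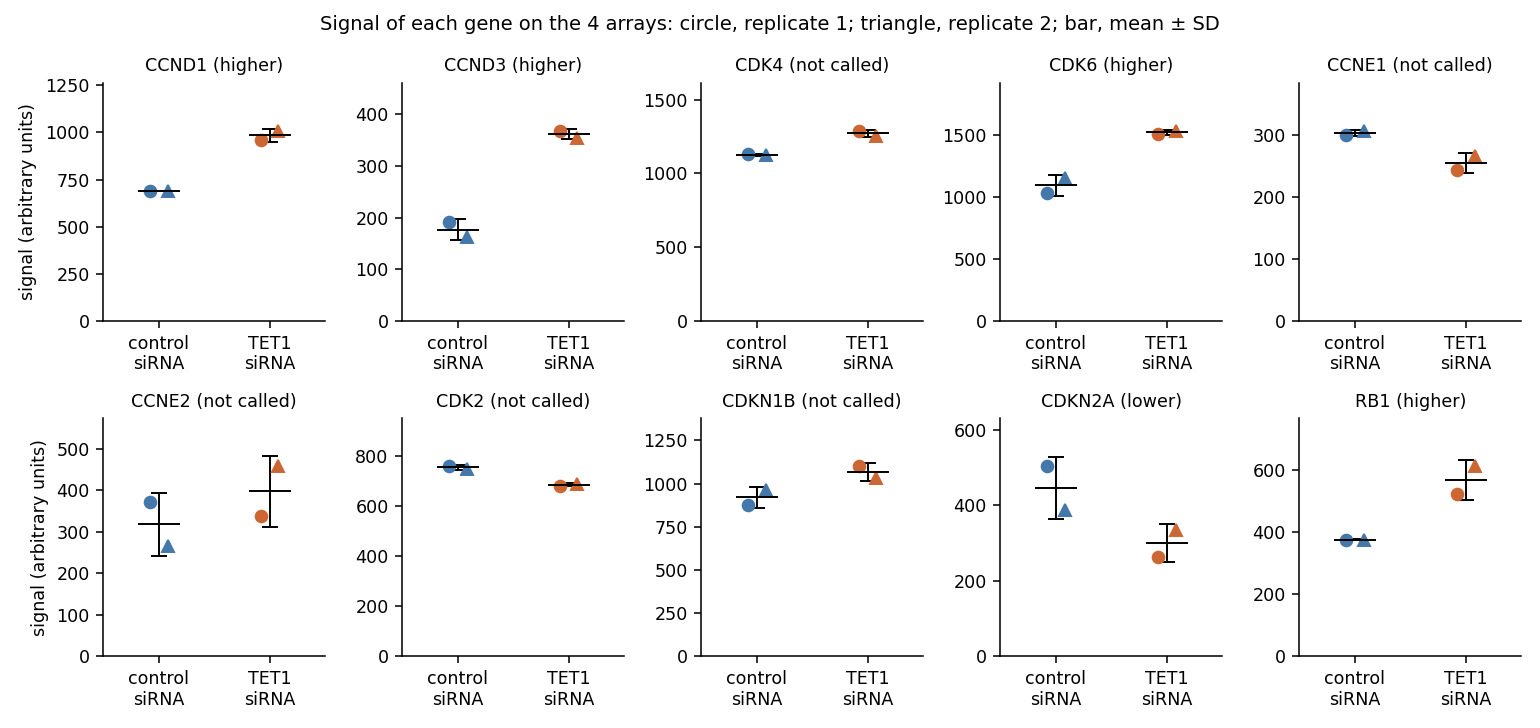
Signal in arbitrary units (vertical axis, from 0, separate for each gene) of the brightest probe set of the 10 genes on 2 control siRNA and 2 TET1 siRNA arrays; circles are replicate 1, triangles replicate 2, and bars the mean ± SD (n = 2). The groups lie apart in 9 genes and overlap in CCNE2; levels are not comparable between genes.

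Both D cyclin genes rose. CCND1 encodes cyclin D1, the regulatory subunit that couples growth signals to CDK4 and CDK6. It read 688.6 and 689.2 in control cells and 961.5 and 1009.8 after TET1 siRNA. Both TET1 siRNA arrays stood above both controls by far more than the spread within either group, with a log2 difference of 0.51 (SE 0.075, limma adjusted p = 0.000706). The dimmer CCND1 probe set pointed the same way, from 200 and 243.5 to 277.3 and 302.6, and as a feature of its own did not pass (log2 difference 0.37, SE 0.12, 95% interval 0.11 to 0.63, limma adjusted p = 0.0574 over 27306 probe sets).

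CCND3, which encodes cyclin D3, changed most of the 10. It read 191.7 and 162.8 on the control arrays and 368.7 and 354.8 after TET1 siRNA, so the groups were separated by a wide gap. The means were 177.2 ± 20.4 and 361.8 ± 9.83 (SD, n = 2 each), and the log2 difference was 0.97 (SE 0.11, limma adjusted p = 0.000121). Of all genes tested, 98.2% had a smaller absolute difference. The other CCND3 probe set read 9.7 to 13.6 on the 4 arrays, below the filter, and was not tested. Because that dim probe set enters it, the mean of both probe sets gave a log2 difference of 0.54, still past the threshold. The third D cyclin gene, CCND2, was below the filter, with 12.8 and 16.6 against 9 and 12.5.

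Of the kinases that pair with D cyclins, CDK6 passed the test and CDK4 did not. CDK6 read 1029.7 and 1152.5 in control cells and 1505.4 and 1532 in cells given TET1 siRNA by its brightest probe set. The groups did not overlap, and the log2 difference was 0.47 (SE 0.076, limma adjusted p = 0.00116). The annotation gives CDK6 7 probe sets, all above the filter, which share 1 gene and are not independent. The 3 brightest each passed as higher when tested as features of their own, with log2 differences of 0.47, 0.48 and 0.54 (limma adjusted p of 0.00206, 0.00494 and 0.00421). The next in signal read 148.3 and 176.4 against 197.7 and 175.9 and did not pass (log2 difference 0.19, 95% interval -0.09 to 0.47). The 3 dimmest probe sets gave 0.24, -0.06 and 0.30, none past the threshold, with intervals that all include 0 and, at the upper end, 0.56, 0.34 and 0.81. The rise of CDK6 passed in its 3 brightest probe sets and in none of the others. The probe set at 0.30 read 10.4 and 10.1 against 18.2 and 14.5, a level at which adding 16 shrinks the difference. The interval of the probe set at -0.06 ended at 0.34, below the 0.47 of the brightest. That of the probe set at 0.19 ended at about 0.47. For those at 0.24 and 0.30 the intervals include both 0 and 0.47. With the mean of all 7 the gene missed the threshold (log2 difference 0.31, limma adjusted p = 0.0679).

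CDK4, the other D cyclin kinase, read 1132.3 and 1122.4 in control cells and 1290.1 and 1252.5 after TET1 siRNA. Both TET1 siRNA arrays were above both controls, by a small margin: the ratio of means was 1.13. It did not pass (log2 difference 0.17, SE 0.069, 95% interval 0.02 to 0.32, limma adjusted p = 0.104, unadjusted p = 0.0308). CDK4 has 1 probe set, so no other reading was at hand. Whether the differences of CDK4 and CDK6 differ from each other was not tested.

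**Figure D2:**
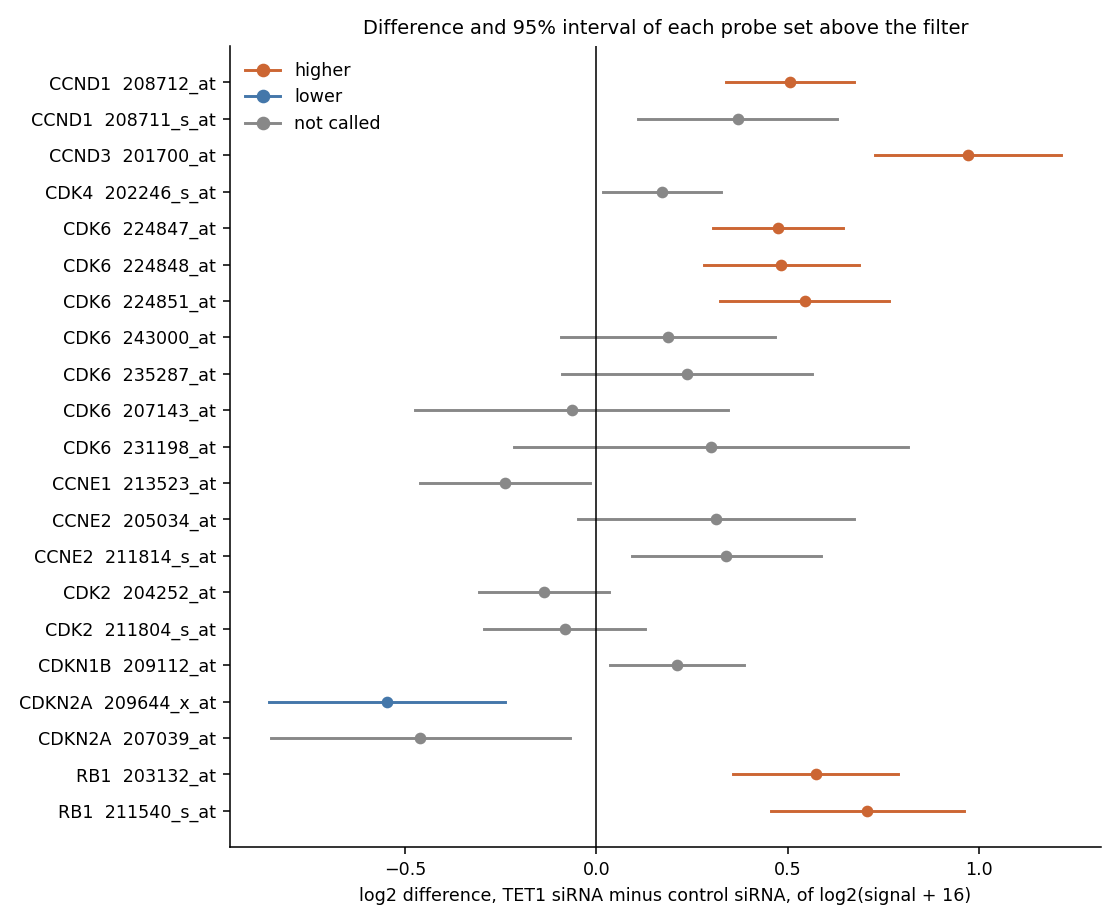
Log2 difference, TET1 siRNA minus control siRNA, of each of the 21 probe sets above the filter (points) with limma's 95% interval (lines), each probe set tested as a feature of its own. Colour gives the call at adjusted p below 0.05 over 27306 probe sets: 7 were higher, 1 was lower and 13 were not called.

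The E cyclin genes and their kinase did not pass. CCNE1, for cyclin E1, read 300 and 307.4 on the control arrays and 243.5 and 266.6 after TET1 siRNA. The TET1 siRNA arrays were both the lower, at a ratio of 0.84, with a log2 difference of -0.24 (SE 0.10, 95% interval -0.46 to -0.02, limma adjusted p = 0.115, unadjusted p = 0.0356). Its second probe set read 1.1 to 5.6 and was below the filter.

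In CCNE2, for cyclin E2, the duplicates of each group lay far apart. Its brightest probe set read 370.7 and 264.6 in control cells and 337.3 and 458.2 in cells given TET1 siRNA, so that the groups overlapped. The log2 difference was 0.31 (SE 0.16, 95% interval -0.04 to 0.67, limma adjusted p = 0.198). Without control siRNA replicate 1 it was 0.54 and passed (limma adjusted p = 0.0433). The lowest value was 0.08, without control siRNA replicate 2 (limma adjusted p = 0.795). The second CCNE2 probe set was tighter, with 158.5 and 157.7 against 199.4 and 209.2, and did not overlap; it too missed the threshold (log2 difference 0.34, SE 0.11, limma adjusted p = 0.0638).

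CDK2, the catalytic partner of the E cyclins, read 761.4 and 749.5 in control cells and 681.3 and 690.9 after TET1 siRNA. The groups lay apart but close together, and the log2 difference of -0.14 did not pass (SE 0.076, 95% interval -0.30 to 0.03, limma adjusted p = 0.24). Its second probe set overlapped, with 387.9 and 368.6 against 372.5 and 340.4. The third read 1.2 and 4.3 against 15.1 and 11.7, below the filter on average, and because it enters the mean of all probe sets, that mean has the opposite sign (log2 difference 0.14, limma adjusted p = 0.329). No direction was therefore given for CDK2.

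Of the inhibitors, CDKN2A passed the test and CDKN1B did not. CDKN2A read 503.6 and 387.7 on the control arrays and 263.6 and 335.4 after TET1 siRNA by its brightest probe set. The groups did not overlap, but the gap between them was smaller than the spread within either group. The means were 445.6 ± 82 and 299.5 ± 50.8 (SD, n = 2 each), and the log2 difference was -0.55 (SE 0.14, limma adjusted p = 0.0146). This probe set has the suffix _x_at, by which the manufacturer marks probes that may also bind other transcripts. The neighbouring gene CDKN2B, which encodes the closely related inhibitor p15, read 144.1 and 158.3 against 135.4 and 156.3 and did not pass (log2 difference -0.05, limma adjusted p = 0.838). The second CDKN2A probe set, with no such suffix, read 104.7 and 74.3 against 63.3 and 56.6, at nearly the same ratio (0.67 for both), and missed the threshold as a feature of its own (log2 difference -0.46, SE 0.18, limma adjusted p = 0.106). The third read 1 to 11.4 on the 4 arrays and was below the filter. Which of the p16 and ARF transcripts each probe set reads, and whether from the mutant CDKN2A allele, was not analysed here. The call depended on single arrays: without control siRNA replicate 1 the log2 difference was -0.365 (limma adjusted p = 0.12), and without TET1 siRNA replicate 1 it was -0.38 (limma adjusted p = 0.115).

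CDKN1B, for p27, read 877.7 and 962.6 in control cells and 1101.9 and 1031.4 in cells given TET1 siRNA. It was higher on both TET1 siRNA arrays, at a ratio of 1.16, with a gap between the groups smaller than the spread between the control arrays, and did not pass (log2 difference 0.21, SE 0.079, 95% interval 0.04 to 0.38, limma adjusted p = 0.0801).

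RB1, the pocket protein gene on which the kinases act, rose in both of its probe sets. The brighter read 376.6 and 375 in control cells and 522.7 and 614.1 after TET1 siRNA, with a log2 difference of 0.57 (SE 0.097, limma adjusted p = 0.00157). The dimmer read 130.1 and 128.5 against 227.9 and 214.7, a log2 difference of 0.71 (SE 0.11, limma adjusted p = 0.00197 as a feature of its own). In both probe sets the control arrays nearly coincided and the TET1 siRNA arrays lay well above them. RB1 was the only one of the 10 genes, beside CDK6, in which more than 1 probe set passed. Counted by probe set, 7 of the 21 above the filter were higher and 1 was lower, against 7.76% and 8.31% of all 27306 probe sets tested (16.1% in either direction). The groups did not overlap in 17 of the 21, against 56.1% of all probe sets tested. These shares over all probe sets are not matched for signal either.

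These calls need limma's moderated variances, which borrow information across genes. Without moderation none of the 12389 genes passed, in the 10 or elsewhere (2679 at unadjusted p below 0.05). Without the trend of variance on signal, CCND1 and CCND3 passed and CDK6 (limma adjusted p = 0.0622), RB1 (0.0531) and CDKN2A (0.125) did not. CCND3 was the only one of the 10 that passed at a difference of 1.5-fold or more on the log2(signal + 16) scale; RB1 reached 1.51-fold by mean signal alone.

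**Figure D3:**
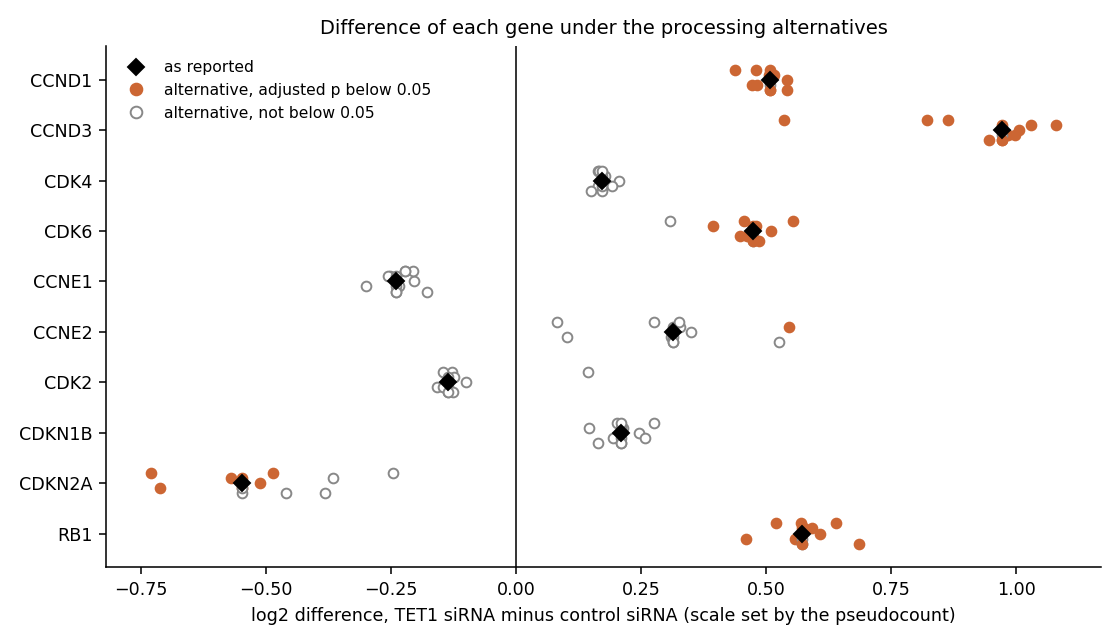
Log2 difference of each gene, TET1 siRNA minus control siRNA, as reported (diamond) and under the alternatives that recompute it (circles, filled where limma's adjusted p was below 0.05); alternatives with the reported value lie under the diamond, and pseudocounts of 1 and 64 change the scale. CCND3 stays above 0.5 throughout, while CDKN2A runs from -0.73 to -0.25 and CDK2 reaches both sides of 0.

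Other genes of the pathway were read from 6 lists. Their genes were described by counts, with no test of a list, and are to be read against the 11.2% of all genes tested that were higher and the 10.6% that were lower. Those shares are not matched for signal. The lists were chosen with earlier results of these data known, so a share above them is no test of a list. Among the other CDK inhibitors 4 of 5 were on the array, and 2 rose and none fell, with a median log2 difference of 0.37. CDKN2D, which encodes the CDK4 and CDK6 inhibitor p19, read 74.4 and 54.3 on the control arrays and 153.9 and 128 after TET1 siRNA (log2 difference 0.97, SE 0.17, limma adjusted p = 0.00164). CDKN1A, for p21, an inhibitor of cyclin-CDK complexes, read 968.9 and 946.4 against 1623.9 and 1703.3 (log2 difference 0.79, SE 0.070, limma adjusted p = 2.86e-05). In both genes the TET1 siRNA arrays lay well above the controls. Neither was called without _x_at and _s_at probe sets. That setting gives no value for a gene that has only such probe sets. A call lost there, in this list or those below, can therefore be a gene that was not tested.

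Of 12 pocket proteins, E2F factors and their DP partners, 1 rose and 2 fell (16.7%), with a median of -0.04, so calls in this list were near the share among all genes. E2F8, a repressor of the family, fell from 142.3 and 153.7 to 75 and 95.4 (log2 difference -0.70, SE 0.15, limma adjusted p = 0.00535). The DP subunits, which pair with E2F factors, moved in opposite directions: TFDP1 had a log2 difference of -0.44 (limma adjusted p = 0.00262) and TFDP2 of 0.62 (limma adjusted p = 0.000332). The rise of TFDP2 was not called with the mean of its probe sets or without _x_at and _s_at probe sets. The MuvB core forms the DREAM repressor complex with pocket proteins other than RB. Of its 5 genes only the histone-binding RBBP4 passed, with 1859.6 and 1847.9 against 1181.3 and 1167.6 (log2 difference -0.65, limma adjusted p = 6.7e-05).

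Of 5 tested genes that activate or fold cyclin-CDK complexes, 2 rose and none fell, with a median of 0.14. They were CDK7, the kinase that phosphorylates CDKs in their activation loop (log2 difference 0.58, limma adjusted p = 0.000357), and CDC37, a co-chaperone of kinases (0.31, limma adjusted p = 0.0191). The list held 1 higher call in place of 2 without control siRNA replicate 1, without control siRNA replicate 2 and without TET1 siRNA replicate 2, and 0 without _x_at and _s_at probe sets or at 1.5-fold or more. Of 11 genes for the turnover of G1 cyclins and p27, 3 rose and 2 fell (18.2%, against 10.6% of all genes), with a median of 0.08. SKP2, substrate receptor of the ligase that marks p27 for degradation, went from 410.8 and 378 to 280.8 and 292.1 (log2 difference -0.44, limma adjusted p = 0.00695), and its cofactor CKS1B had a log2 difference of -0.38 (limma adjusted p = 0.00513). CDC34, a ubiquitin-conjugating enzyme, rose by 0.40, and the ligase core genes RBX1 and SKP1 by 0.40 and 0.25 (limma adjusted p of 0.00691, 0.00936 and 0.00825). Those 3 rises were all lost without TET1 siRNA replicate 2, and both falls without _x_at and _s_at probe sets.

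The list of genes taken as ones that E2F factors switch on at S phase entry was the longest and had the most calls. Control of these genes by E2F factors was not measured here. Of 21 tested, 10 fell, 1 rose and 10 did not pass, with a median log2 difference of -0.34; 47.6% fell, against 10.6% of all genes tested. CCNA2, for the S and G2 cyclin A2, read 591.6 and 597.3 in control cells and 333.9 and 327 in cells given TET1 siRNA (log2 difference -0.82, SE 0.085, limma adjusted p = 7.38e-05). The helicase subunit gene MCM7 had a log2 difference of -0.67, the F-box cyclin gene CCNF of -0.58, the ribonucleotide reductase subunit gene RRM1 of -0.53, the DNA ligase gene LIG1 of -0.51 and the helicase subunit gene MCM2 of -0.43, all past the threshold. The gene that rose was PCNA, the sliding clamp (0.24, limma adjusted p = 0.0411), named after its value was seen. PCNA was not called with any 1 of control siRNA replicate 2, TET1 siRNA replicate 1 and TET1 siRNA replicate 2 left out, nor with quantile normalization, no filter, the mean of its probe sets or no variance trend. Without control siRNA replicate 2 the number that fell was 5, and without TET1 siRNA replicate 1 it was 4. On the same arrays the D cyclin genes, CDK6 and RB1 rose and CDKN2A fell. Of the 21 tested genes of this list 10 fell, and the other 11 rose or did not pass. Whether these changes are linked was not tested.

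**Figure D4:**
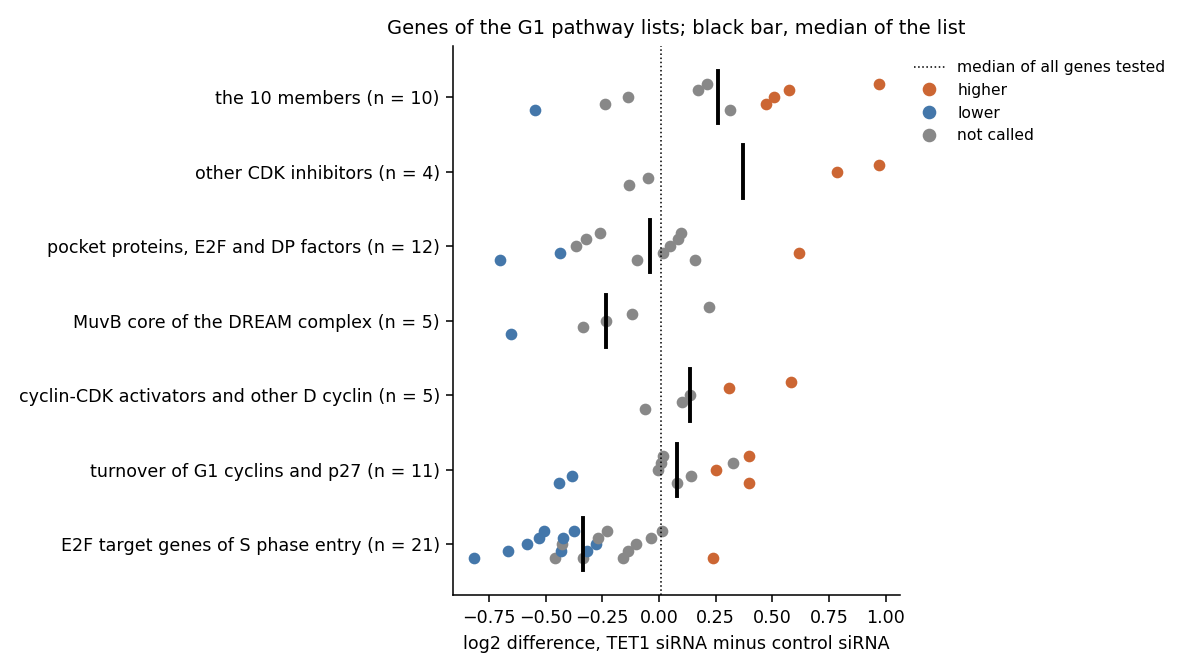
Log2 difference, TET1 siRNA minus control siRNA, of each tested gene (points) of the 10 members and of 6 further lists of the G1 pathway; black bars are list medians, the dotted line is the median of all genes tested (0.01), and colour gives limma's call at adjusted p below 0.05. E2F targets lie mostly below 0, with a median of -0.34, and the 10 members mostly above, with a median of 0.26.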

How the data were processed

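Samples were grouped by the siRNA in their labels (2 control, 2 TET1). The authors deposited a linear intensity for each probe set; oligo(dT)-primed cDNA gave biotin-labelled cRNA, per the labels' protocols, so signals come mainly from 3' ends. With 2% of the deposited values cut from each end, every array averages 100.01, so the authors had scaled them. Which software and background step were used is not given in the sources used here. Scaling hides changes in total mRNA, and dim signals depend on the background step.

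Values were used as log2(signal + 16), which understates changes of dim genes. After removal of 62 control probe sets, a gene was read by its brightest probe set on average (19775 genes, symbols updated through RefSeq), and features with a mean log2 value above the median of all probe sets (4.86) were tested: 12389 genes, and separately 27306 probe sets. The test was limma 3.58.1 under R 4.3.3 (lmFit, eBayes with trend), two-sided, Benjamini-Hochberg adjusted over all features, threshold 0.05; residual degrees of freedom were 2. The fit was run on simulated data as a check of the code. Variances there followed the form that limma assumes, with no trend on signal, so that check has no bearing on the calls reported.

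The members and lists were chosen with earlier results of these data known. From each list the called genes are named, at most 6 by size of difference. Processing alternatives, 17 in number, cover scaling, pseudocount, variance model, replicate block, single arrays, filter, choice of probe set and threshold.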

Additional observations from a re-analysis of the deposited data

How the results depend on the processing

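Direction held for 9 of the 10 genes and TET1 in every alternative that gave a value; CDK2 reversed with the mean of all probe sets (0.14 against -0.14, neither called). CCND1 and CCND3 were called in 15 and 16 of 17 alternatives, RB1 in 14, CDK6 in 13 and CDKN2A in 8; CDK4, CCNE1, CDK2 and CDKN1B were called in none. CDK4 and CDKN1B had adjusted p from 0.0778 to 0.35 and from 0.0618 to 0.348. TET1 missed the threshold only without moderation (log2 difference -1.28, adjusted p = 0.0964). A dim CDK6 probe set (-0.06 as reported) ran from -0.26 to 0.13 when 1 array was left out and was above 0 without control siRNA replicate 2 (0.13) and without TET1 siRNA replicate 2 (0.09), none of these called.

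Of the 10 genes, 4 were higher and 1 lower as reported. The counts were 2 and 0 without the variance trend, 0 and 0 without moderation, and 1 and 0 at 1.5-fold or more. None was lower with no filter, at adjusted p 0.01, with the mean of all probe sets, or without _x_at and _s_at probe sets. Leaving out 1 array gave 4 to 5 higher and 0 to 1 lower, with the remaining array of that group taken to vary as the others do. Of the probe sets, 7 were higher and 1 lower; the counts were 2 and 0 without trend, 0 and 0 without moderation, 2 and 0 at 1.5-fold, with 0 lower also with no filter and at adjusted p 0.01, and 7 to 8 higher and 0 to 1 lower without 1 array.

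Over all genes, 1393 were higher and 1316 lower. Counts were 442 and 542 without trend, 0 and 0 without moderation, 905 and 854 with no filter, 751 and 731 at adjusted p 0.01, and 429 and 537 at 1.5-fold. They were 772 higher when probe sets were averaged, 885 higher without _x_at and _s_at probe sets, 813 to 1159 higher and 873 to 982 lower without 1 array. E2F targets that fell, 10 as reported, were 2 without trend or at 1.5-fold, 0 without moderation, and 5 with no filter, at adjusted p 0.01 or without _x_at and _s_at probe sets. The replicate numbers did not pair the arrays (r = 0.00554 between the duplicates' differences, across 12389 genes); with the replicate block 1442 genes were higher and 1349 lower, and the calls of the 10 genes were 4 and 1. Dim probe sets are limited by the number of arrays, and the background step, which is unstated, was not varied.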
